A study of Homo sapiens with 4 samples.

Results

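The large ribosomal subunit protein genes are the genes whose protein products, together with ribosomal RNA, build the large subunit of the cytosolic ribosome. They were taken as every gene whose symbol is RPL or RPLP followed by a number, with or without the endings A, L, L1 or AL, which gave 53 of the 36601 genes listed. Of these, 46 are core genes and 7 are paralogs of a core gene (RPL3L, RPL7L1, RPL10L, RPL22L1, RPL26L1, RPL36AL and RPL39L). The rule used symbols only, and the family was taken up with earlier results of these data known.

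The cells were BEAS-2B, a human bronchial epithelial line that was immortalized in culture, left without radiation (control) or exposed to 10 mGy, 100 mGy or 1 Gy of gamma rays from a caesium source at 100 mGy per min. They were sequenced as single cells 30 min after exposure, with 1 library per dose and the same line in all 4 groups. A barcode marked the mRNA of each cell and a unique molecular identifier (UMI) each molecule, and UMIs were counted for every gene in every barcode. With 1 library per dose no test between doses was possible, dose and library cannot be told apart, and every interval given is an exact 95% interval that covers counting error only.

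Ribosomal proteins are needed in nearly equal numbers, since most occur once in each ribosome, and growing cells spend a large part of their transcription and translation on them. Their mRNAs are short and abundant, and most begin with a C followed by a run of C and T bases at the start of transcription, the 5′ terminal oligopyrimidine motif (5′ TOP), through which mTOR signalling acts on their translation. Several core genes have a paralog that can take the place of the core protein, in some cases with a restricted tissue pattern such as testis or striated muscle.

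The RefSeq table of gene starts (GRCh38.p14) held 43 of the 53 genes. Those without an entry included RPL23, RPL23A, RPL30, RPL37, RPL39L, RPL3L, RPL5, RPL7 and RPL8. A 5′ TOP was searched on the gene's own strand, as a C at the annotated start followed by at least 4 bases that are C or T. It was present at a start of 29 of the 43 genes (67.4%) and of 28 of the 38 core genes in the table (73.7%), compared with 5.14% of all 27305 genes in the table. The sequences below set the core genes with the highest ratios at the low doses (RPL10 and RPL39) and the most abundant one beside RPL4 and RPL7L1, which were not higher there in CPM. They also include RPL13A, which in CPM was over 1.2-fold higher at 10 mGy but not at 100 mGy, and other paralogs and their core genes. Each gives 30 bases, 20 before the annotated start and 10 from it on, and capitals mark the unbroken run of C and T that begins at the start. For RPL10, 1 of 3 annotated starts is shown, the only one of them with a 5′ TOP. For RPL26L1, 1 of 2 is shown, and neither has one.
RPL10, chrX:154398357-154398386, plus strand: atgcgcaggcggaggagcgcCTCTTTCCCT
RPL39, chrX:119791621-119791650, minus strand: gctcgttcttccgccagcttCCCTCCTCTT
RPLP1, chr15:69452798-69452827, plus strand: gctgcgtataggcgcgagagCCCCTTTCCT
RPL13A, chr19:49487588-49487617, plus strand: ccctgcgacaaaacctcctcCTTTTCCaag
RPL4, chr15:66504846-66504875, minus strand: acatatacagcgggagtggtaagcacttcc
RPL36A, chrX:101390991-101391020, plus strand: ttccgtttgcctcgcggtttCTTTCTTTCC
RPL36AL, chr14:49620617-49620646, minus strand: tccgcctgtttcttccctttCCTgttaggc
RPL22, chr1:6199586-6199615, minus strand: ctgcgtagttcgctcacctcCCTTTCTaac
RPL22L1, chr3:170870186-170870215, minus strand: gaccgcgcggccgtagcttcCTCTCTgctc
RPL26, chr17:8383184-8383213, minus strand: accggaagcagcgtgtagttCTCTTCCCTT
RPL26L1, chr5:172958709-172958738, plus strand: caggcagtcttccaggggtcggcgaacgaa
RPL7L1, chr6:42879596-42879625, plus strand: cgcgccggaagtgcggcgccgtagctagga

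Among the paralogs in the table, RPL22L1 carried a 5′ TOP at its annotated start, whereas RPL7L1, RPL10L, RPL26L1 and RPL36AL did not. In RPL36AL the run at the annotated start was only 3 bases, but a match lay within 10 bases of it. RPL4 had no such run at its start and a match within 10 bases as well, and within that distance a match is frequent in general, at 32.5% of all RefSeq starts. A match describes letters at an annotated start and does not show where transcription began in these cells.

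The 4 libraries held between 211752280 and 285806026 UMIs on 11111 to 21514 barcodes, and pairs of libraries shared 76 to 134 barcode sequences. Low-UMI barcodes, for which 3 times the UMI count was still under the median of their library, were 19.6% of control barcodes and 41.4%, 27.4% and 25.4% of those of the 10 mGy, 100 mGy and 1 Gy libraries. The share of mitochondrially encoded UMIs was 5.91%, 4.55%, 4.40% and 5.78% in the same order. The epithelial genes KRT7, KRT8 and KRT18 were present in every library, with 219 to 645 CPM (UMIs per 1000000 UMIs), while EPCAM stayed below 1.2 CPM and CDH1 below 0.05 CPM, next to 2344 to 2702 CPM for the mesenchymal VIM. Markers of airway basal cells (KRT5, TP63), leukocytes (PTPRC, CD3E, LYZ) and endothelium (PECAM1, VWF) were at or near 0. The epithelial KRT19 was low, with 1.72 to 2.41 CPM, and the mesenchymal FN1 had 1546 CPM in the control and 623, 640 and 1466 CPM after 10 mGy, 100 mGy and 1 Gy.

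Together the 53 genes had a share of 8.04% of the UMIs in the control, 11.5% after 10 mGy, 12.4% after 100 mGy and 8.09% after 1 Gy. Hence the control and 1 Gy lay close together and both low doses lay higher, on a scale in which every UMI of one gene is taken from the others. In the same libraries the nuclear transcript MALAT1 moved the other way, with 12576, 7801, 7401 and 11949 CPM, and all 13 mitochondrially encoded genes were lower than the control at both low doses. Most genes were lower on this scale. Of the 8507 genes with a mean of at least 10 CPM, 6115 lay below the control at 10 mGy and 6354 at 100 mGy. The part of MALAT1 and the mitochondrially encoded genes in the result was not tested. With the method used, a transcript yields 1 UMI whatever its length, so CPM values of different genes were compared without division by length.

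Of the 53 genes, 51 reached a mean of 10 CPM over the 4 libraries and were compared as ratios of CPM, beside the 8507 genes of the whole table that did so. The 2 left out were RPL3L, whose product replaces RPL3 in heart and skeletal muscle, and RPL10L, which replaces RPL10 in male germ cells. RPL3L had 6 UMIs in the control, 3 after 10 mGy, 7 after 100 mGy and 8 after 1 Gy. RPL10L had 1 UMI in the control and 0 in the other 3 libraries, which allows a level of up to 0.0105 CPM after 10 mGy, 0.0123 CPM after 100 mGy and 0.0142 CPM after 1 Gy. Both genes were thus near the limit of detection in this line.

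Levels of the core genes spread over about one order of magnitude. In the control, RPLP1, an acidic protein of the ribosomal stalk, had the highest level, with 4288 CPM in the control, 5784 after 10 mGy, 6175 after 100 mGy and 4401 after 1 Gy. RPL10, a protein next to the catalytic centre and among the last to join the subunit, had 3299, 5913, 6396 and 3457 CPM in the same order. RPL8, which lies beside the catalytic centre as well, had 3237, 4691, 4715 and 3073 CPM. RPL10 thus passed RPLP1 at both low doses and fell behind it again at 1 Gy. The lowest core gene in every library was RPL31, a protein at the rim of the exit tunnel, and the highest core level was 10.3 times the lowest in the control and 8.87, 10.8 and 9.80 times at 10 mGy, 100 mGy and 1 Gy. Among the 51 compared genes, the 5 expressed paralogs held 5 of the 6 lowest places in the control, with RPL31 among them.

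**Figure D1:**
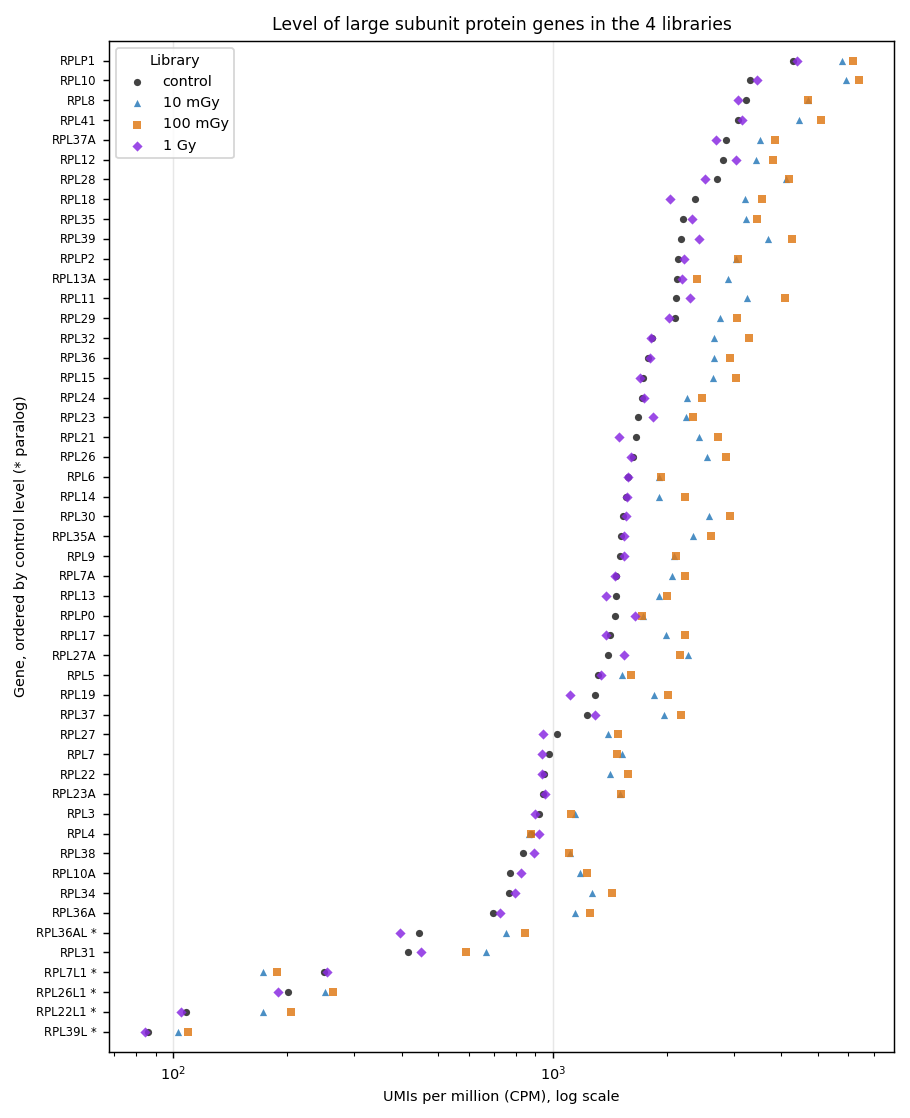
Level of 50 of the 51 compared genes in the 4 libraries, in UMIs per 1000000 UMIs (CPM) on a log axis, ordered by the control level; each point is 1 library and an asterisk marks a paralog. On this scale the 10 mGy and 100 mGy points lie to the right of the control for 48 of the genes shown and to its left or on it for RPL4 and RPL7L1, and the 1 Gy points lie close to the control.

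Relative to the control, 46 of the 51 genes were over 1.2-fold higher at 10 mGy, against 15.4% of all genes compared, and 47 at 100 mGy, against 14% of all genes. Over 1.2-fold lower was 1 gene, RPL7L1, at each of the low doses, against 53% of all genes at 10 mGy and 58.9% at 100 mGy. The median ratio was 1.43 at 10 mGy and 1.502 at 100 mGy, or 0.52 and 0.59 on the log2 scale, while the median of all genes was −0.30 and −0.38. Both low doses share the same control library. The direction rests on scaling between the libraries, since in unscaled UMIs per barcode the median log2 ratio of the 51 genes was −0.0081 and −0.06. There, 1 gene was over 1.2-fold higher and 5 lower at 10 mGy, and 6 were higher and 8 lower at 100 mGy. Of all genes, 1.62% were higher and 84.6% lower at 10 mGy in those units, and 1.02% and 90.1% at 100 mGy. On that scale the median of all genes was −0.83 and −1.03, and the distance of the family to it is the same on both scales by construction. Under median ratio scaling, which sets the median gene near 0, 50 of the 51 genes were over 1.2-fold higher and 0 lower at each low dose, so the lower call of RPL7L1 was lost. Of all genes, 30.6% were higher and 27.3% lower at 10 mGy by that scaling, and 31.8% and 29.01% at 100 mGy.

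No member was over 2-fold higher in CPM at any dose, against 0.376% of all genes at 10 mGy, 0.482% at 100 mGy and 0% at 1 Gy. Over 1.5-fold higher were 18 members at 10 mGy, against 4.94% of all genes, and 26 at 100 mGy, against 5.04%. In 49 of the 51 genes (96.1%) the level at both low doses was above both the control and 1 Gy, compared with 20.7% of all genes. At 1 Gy, 0 of the 51 genes passed 1.2-fold in either direction, against 1.28% of all genes higher and 0.846% lower. In unscaled UMIs per barcode, all 51 were over 1.2-fold lower at 1 Gy, as were 97.2% of all genes. The ratios at 1 Gy ran from 0.855 to 1.13 with a median of 1.01. The interval of a ratio was narrow for all 51 genes, reaching 0.218% to 2.07% of the ratio to either side, while the spread between libraries of one dose was not measured.

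**Figure D2:**
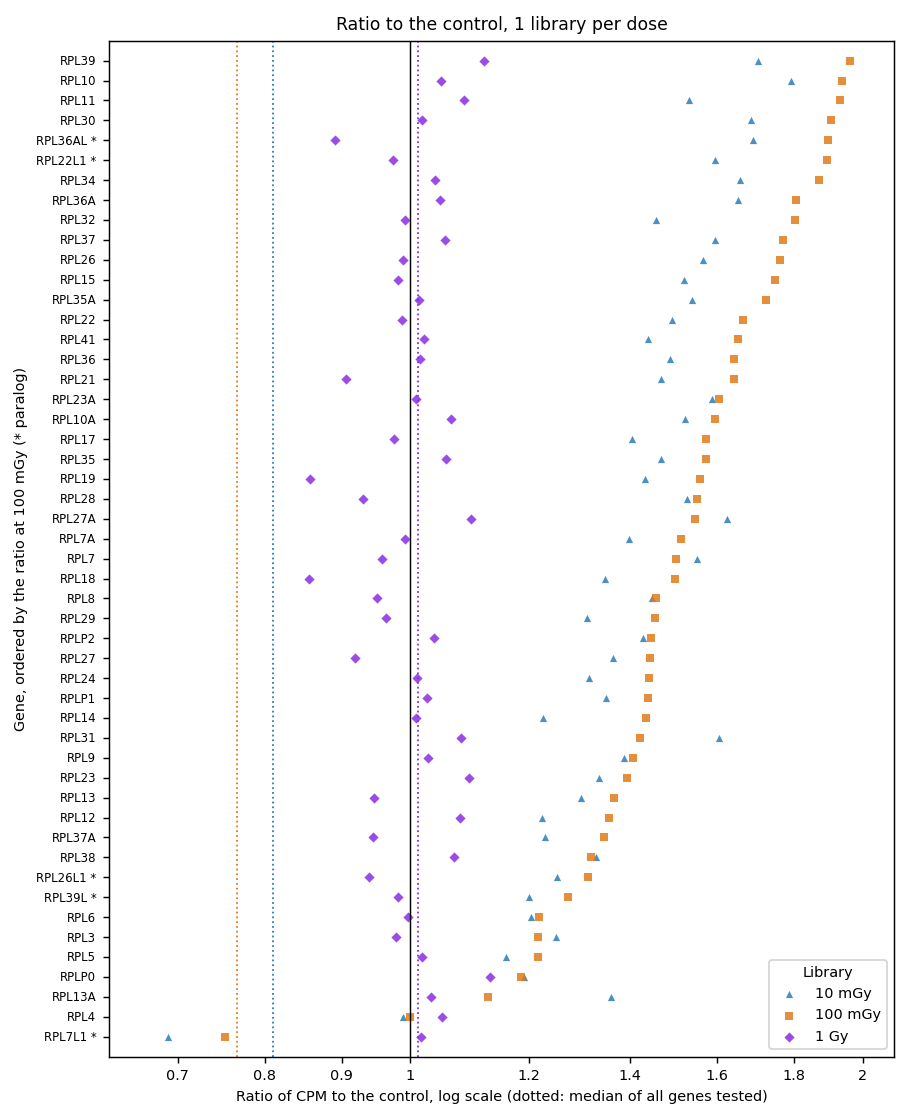
Ratio of CPM to the control for 50 of the 51 compared genes at 10 mGy, 100 mGy and 1 Gy, on a log axis; dotted lines give the median of all genes compared and the solid line marks a ratio of 1. Most low-dose points lie between 1.2 and 2 and the 1 Gy points between 0.855 and 1.13, on the CPM scale; in unscaled UMIs per barcode the median of the low-dose points would lie at or just below 1.

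The stalk recruits the elongation factors to the ribosome and is made of RPLP0, RPLP1 and RPLP2, with RPL12 at its base. All 4 were higher at both low doses in CPM, as were 49 of the 51 genes of the family. The medians of the 4 were 1.29 at 10 mGy and 1.397 at 100 mGy. At each dose 3 of 4 passed 1.2-fold, against 46 and 47 of the 51 and 15.4% and 14% of all genes. RPLP0, the anchor that holds RPLP1 and RPLP2, had 1454 CPM in the control, 1731 after 10 mGy, 1722 after 100 mGy and 1643 after 1 Gy. Its ratios were therefore among the smallest of the family at the low doses, 1.19 and 1.18, and the largest of all 51 genes at 1 Gy, 1.13 (interval 1.12 to 1.13). RPL12 had 2810, 3440, 3808 and 3031 CPM, and RPLP2 had 2132, 3046, 3083 and 2211 CPM. RPLP0 was thus the member whose 3 irradiated libraries differed least from each other while all lay above the control.

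RPL5 and RPL11 form a particle with 5S ribosomal RNA, which is built into the subunit and, when free, binds MDM2 and restrains it from degrading p53. The ratios of the partners differed. RPL5 had 1318 CPM in the control, 1526 after 10 mGy, 1603 after 100 mGy and 1341 after 1 Gy, with ratios of 1.16 and 1.22 at the low doses. RPL11 had 2115, 3242, 4084 and 2295 CPM, with ratios of 1.53 and 1.93. RPL11 passed RPL13A, which had stood above it in the control, and stood in the 7th place of the family at 100 mGy after the 13th in the control. RPL10A, which forms the mobile stalk where spent tRNA leaves, had 772, 1177, 1232 and 822 CPM.

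The exit tunnel, through which the growing chain leaves, is lined at its rim and wall by RPL4, RPL17, RPL19, RPL22, RPL23A, RPL26, RPL31, RPL35, RPL37 and RPL39. Of these 10 genes, 9 passed 1.2-fold at each low dose in CPM, against 46 and 47 of the 51 and 15.4% and 14% of all genes. The median ratios of the 10 were 1.53 and 1.59, beside 1.43 and 1.502 for the family. RPL39, a very small protein of the wall, had the largest ratio of the family at 100 mGy, with 2170 CPM in the control, 3699 after 10 mGy, 4259 after 100 mGy and 2428 after 1 Gy. Its ratio at 100 mGy was 1.96 (interval 1.96 to 1.97), and at 1 Gy it was still 1.12.

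The other tunnel proteins except RPL4, given in the same order of libraries, lay between RPL39 and the median of the family or close to it. RPL37, a zinc-binding protein, had 1228, 1958, 2174 and 1295 CPM. RPL23A, which docks the signal recognition particle at the tunnel exit together with RPL35, had 944, 1499, 1515 and 952 CPM. RPL35 itself had 2197, 3226, 3456 and 2321 CPM. The docking proteins thus had ratios of 1.59 and 1.47 at 10 mGy and of 1.605 and 1.57 at 100 mGy. RPL17, which shapes the narrow part of the tunnel with RPL4, had 1416, 1987, 2227 and 1381 CPM and so, unlike RPL4, was higher at both low doses.

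RPL4, whose long loop narrows the same tunnel, was the 1 core gene that was not above the control at either low dose. It had 877 CPM in the control, 867 after 10 mGy, 876 after 100 mGy and 920 after 1 Gy. The ratios were 0.989 (interval 0.983 to 0.995), 0.999 (interval 0.992 to 1.00) and 1.05, so RPL4 was flat in CPM while the median gene of the whole table was lower. Under median ratio scaling its log2 ratios at the low doses were 0.28 and 0.38, which is over 1.2-fold higher. Its share of the UMIs of the family was 1.09% in the control, 0.756% after 10 mGy, 0.709% after 100 mGy and 1.14% after 1 Gy. This share does not depend on the scaling between libraries.

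Proteins near the catalytic centre and the subunit interface were RPL3, RPL8, RPL10, RPL23, RPL24, RPL27A, RPL36A and RPL41. All 8 passed 1.2-fold at both low doses in CPM, against 46 and 47 of the 51 and 15.4% and 14% of all genes. The median ratios of the 8 were 1.44 and 1.502, close to those of the family, 1.43 and 1.502. RPL10 had the largest ratio at 10 mGy, with values of 1.79 and 1.94 from the levels given above. RPL3, which reaches towards the site where aminoacyl tRNA enters, stood at the other end with 917 CPM in the control, 1147 after 10 mGy, 1116 after 100 mGy and 897 after 1 Gy. RPL27A had 1399, 2272, 2166 and 1536 CPM, and was among the 3 largest at 1 Gy with a ratio of 1.10. RPL41, a very short peptide that links the subunits, had 3083, 4440, 5094 and 3146 CPM. RPL23, another interface protein, had 1675, 2237, 2335 and 1832 CPM, and RPL24, which forms a bridge to the small subunit, had 1718, 2260, 2477 and 1734 CPM. The group therefore held both the largest ratio of the family at 10 mGy and 1 of the smaller ones.

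Among the other 21 core genes, 21 passed 1.2-fold at 10 mGy and 20 at 100 mGy in CPM, with medians of 1.39 and 1.499. In the family 46 and 47 of the 51 passed, and of all genes 15.4% and 14%. RPL30, a small protein at the interface side, had 1534 CPM in the control, 2587 after 10 mGy, 2926 after 100 mGy and 1562 after 1 Gy. RPL34 had 767, 1271, 1435 and 797 CPM, with ratios of 1.66 and 1.87. Both were among the members with the largest ratios at the low doses.

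RPL15, RPL35A and RPL36 also had ratios above the median of the family at both low doses. RPL15 had 1733 CPM in the control and 2638, 3032 and 1701 CPM after 10 mGy, 100 mGy and 1 Gy. RPL35A, a gene mutated in Diamond-Blackfan anaemia, had 1516, 2334, 2616 and 1536 CPM. RPL36 had 1784, 2656, 2928 and 1809 CPM. Of the 3, RPL36 had the smallest ratios, 1.49 at 10 mGy and 1.64 at 100 mGy. RPL21 had a like pattern at the low doses, with 1655, 2430, 2717 and 1499 CPM, but was lower at 1 Gy, with a ratio of 0.905.

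Another part of this group had ratios on either side of the median of the family. RPL7A had 1471, 2057, 2228 and 1459 CPM, and RPL9 had 1499, 2081, 2108 and 1540 CPM. RPL27 had 1028, 1402, 1484 and 945 CPM, and RPL28 had 2702, 4126, 4193 and 2514 CPM. For RPL9 and RPL28 the low-dose libraries lay close to each other, as their ratios of 100 mGy to 10 mGy were 1.01 and 1.02.

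At the lower end of this group at 10 mGy stood RPL6, RPL37A, RPL14, RPL13, RPL29 and RPL38. RPL6 had 1580, 1902, 1923 and 1574 CPM, with ratios of 1.204 and 1.22 that only just passed the limit. RPL37A had 2854, 3506, 3839 and 2697 CPM, RPL14 had 1557, 1907, 2233 and 1570 CPM, and RPL13 had 1463, 1899, 2000 and 1384 CPM. Of these, RPL14 differed most between the low doses, with a ratio of 1.17. RPL29 had 2100, 2752, 3053 and 2023 CPM. RPL38, whose loss in the mouse disturbs the translation of Hox mRNAs, had 836, 1111, 1103 and 894 CPM.

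The 1 gene of this group that did not pass 1.2-fold at 100 mGy in CPM was RPL13A, a surface protein that in interferon-treated monocytic cells is released from the ribosome to silence inflammatory mRNAs. It had 2125 CPM in the control, 2890 after 10 mGy, 2393 after 100 mGy and 2194 after 1 Gy. Its ratio was 1.36 at 10 mGy and 1.13 at 100 mGy, and it stood in the 13th place of the family at 10 mGy and in the 23rd at 100 mGy. Under median ratio scaling RPL13A was among the 50 members over 1.2-fold higher at 100 mGy, against 31.8% of all genes. RPL13A carries a 5′ TOP at its annotated start (the sequence is given above), as do RPL39 and, only at the annotated start shown, RPL10. Over the core genes, those with the motif had a median ratio of 1.45 at 10 mGy and 1.53 at 100 mGy (n = 28), those without it 1.396 and 1.501 (n = 10), and those with no entry there 1.5002 and 1.48 (n = 8).

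Setting 100 mGy beside 10 mGy directly, 2 of the 51 genes were over 1.2-fold higher at 100 mGy, against 1.35% of all genes, and 1 was lower, against 12.7%. The higher ones were RPL11, with a ratio of 1.26, and RPL32, with 1.24 from 1829 CPM in the control, 2664 after 10 mGy, 3297 after 100 mGy and 1814 after 1 Gy. The lower one was RPL13A at 0.828, which was just inside the limit without the low-UMI barcodes, at 0.834. Under median ratio scaling, and with ribosomal protein and mitochondrially encoded genes left out of the scaling, 0 members were lower and 7 and 3 higher, against 6.35% and 9.50% of all genes lower and 4.69% and 2.14% higher. RPL31 followed with 0.886, from 415, 667, 591 and 449 CPM, and RPL27A with 0.953. In total 44 genes were above 1, against 32.2% of all genes, and 7 below, with a median of 1.08 in CPM, while in unscaled UMIs per barcode 25 were above and 26 below, beside −0.19 on the log2 scale for the median gene of the whole table.

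At 1 Gy the smallest ratios of CPM were those of RPL18, which had 2375 CPM in the control, 3202 after 10 mGy, 3561 after 100 mGy and 2032 after 1 Gy, and of RPL19, a long helical protein that bridges to the small subunit, which had 1292, 1852, 2012 and 1108 CPM. Their ratios at 1 Gy were 0.855 (interval 0.852 to 0.859) and 0.858. These differences exceeded counting error but not 1.2-fold, and without replicate libraries their size cannot be set against the spread between cultures. Of the 51 genes, 28 were above 1 at 1 Gy in CPM, near the share of all genes, 56.2%. By place these were 4 of 4 stalk genes, 2 of 2 of the 5S particle and RPL10A. They also included 6 of 10 tunnel genes, 6 of 8 near the catalytic centre, 8 of the other 21 core genes and 1 of 5 paralogs. Under median ratio scaling 9 members turned below 1, so no pattern by place was read from these counts.

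The paralogs were then set against their core genes. The share of the paralog in the UMIs of the pair does not depend on the scaling between libraries. It describes mRNA and does not show which proteins the ribosomes held. RPL7L1, which resembles RPL7, made up 20.3% of its pair in the control (interval 20.2 to 20.5), 10.2% after 10 mGy, 11.3% after 100 mGy and 21.3% after 1 Gy. Its level was 250 CPM in the control, 172 after 10 mGy, 188 after 100 mGy and 254 after 1 Gy, whereas RPL7 had 980, 1520, 1473 and 938 CPM. RPL7L1 was therefore lower at both low doses, with ratios of 0.689 (interval 0.681 to 0.698) and 0.752 (interval 0.743 to 0.762), beside 0.810 and 0.766 for the median gene of the whole table, so it lay below that gene at 10 mGy and close to it at 100 mGy.

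RPL36AL and RPL22L1 kept close to their core genes at the low doses. RPL36AL had 445 CPM in the control, 752 after 10 mGy, 845 after 100 mGy and 397 after 1 Gy, beside 694, 1147, 1255 and 727 CPM of RPL36A. It was 39.1%, 39.6% and 40.2% of its pair in the first 3 of these libraries and 35.3% at 1 Gy, where RPL36AL was 0.891 of the control and RPL36A 1.05. RPL22L1, whose mRNA is held down by RPL22 protein in several systems, had 108, 172, 204 and 105 CPM, beside 945, 1412, 1575 and 934 CPM of RPL22. Its share was 10.2%, 10.9%, 11.5% and 10.1%. The rise at the low doses was small but beyond counting error, with intervals of 10.1 to 10.4 in the control and 11.4 to 11.6 at 100 mGy.

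RPL26L1 and RPL39L had smaller ratios at the low doses than their core genes. RPL26L1 had 201 CPM in the control, 251 after 10 mGy, 263 after 100 mGy and 188 after 1 Gy, beside 1627, 2550, 2867 and 1608 CPM of RPL26, and its share was 10.98%, 8.97%, 8.41% and 10.5%. RPL39L, known for its high level in male germ cells, had 85.9, 103, 109 and 84.2 CPM beside the levels of RPL39 given above. Its share was 3.81% in the control, 2.71% after 10 mGy, 2.50% after 100 mGy and 3.35% after 1 Gy. With a ratio of 1.199 at 10 mGy, RPL39L lay just below the limit of 1.2-fold, and it passed at 100 mGy with 1.27.

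For 2 of these pairs the reads may be hard to assign. In the GENCODE 29 transcripts, RPL36AL shared 14 windows of 50 bases with RPL36A and RPL39L shared 18 with RPL39. Windows were taken from every base on, so overlapping windows counted separately and the numbers do not give separate stretches. Each of them touched the last 300 bases of a transcript, while the other 3 expressed pairs shared 0. In the same annotation, between 0 and 91 pseudogenes carry the name of a member, with a median of 8 and the highest number for RPL23A. How reads that match such copies were counted was not tested, and levels of these genes may be understated or mixed.

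**Figure D3:**
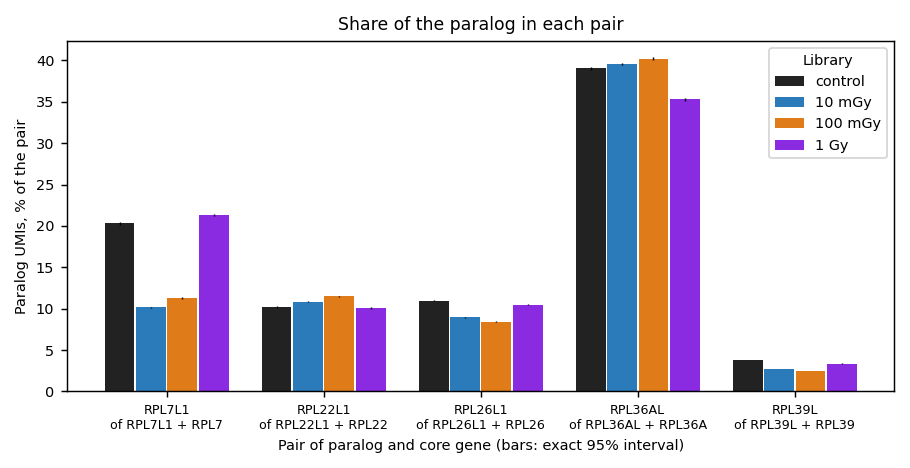
Share of each expressed paralog in the summed UMIs of the paralog and its core gene, in percent, for the 4 libraries; thin lines are exact 95% intervals for counting error. RPL7L1 makes up 20.3% in the control, 10.2% after 10 mGy, 11.3% after 100 mGy and 21.3% after 1 Gy, while RPL22L1 stays between 10.1% and 11.5%.

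The family was next examined barcode by barcode, because the low-UMI barcodes differed in number between the libraries. The median share of UMIs in the 53 genes was 7.98% in other and 8.67% in low-UMI control barcodes. The same pair of medians was 11.4% and 12.3% in the 10 mGy library, 12.3% and 13.0% in the 100 mGy library, and 7.98% and 9.86% in the 1 Gy library. Both kinds of barcode therefore showed the higher share at the low doses, and without the low-UMI barcodes 47 of the 51 genes passed 1.2-fold at 10 mGy and 47 at 100 mGy, against 15.3% and 13.9% of all genes.

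**Figure D4:**
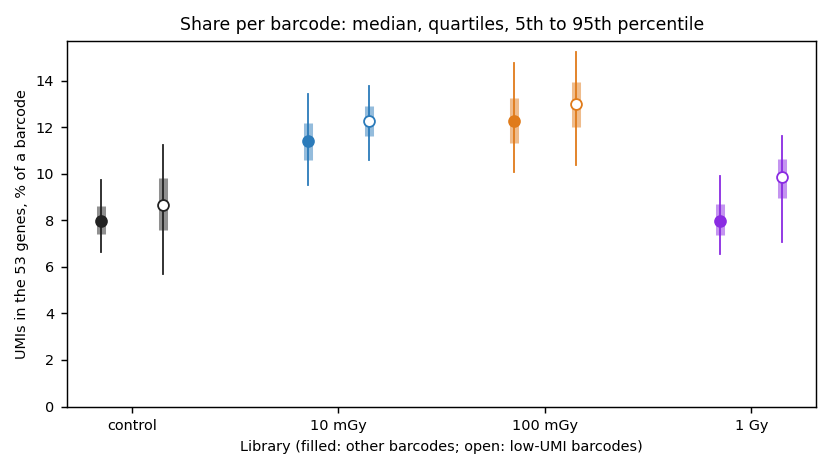
Share of the 53 genes in the UMIs of a barcode, in percent, with the median (circle), the quartiles (thick bar) and the 5th to 95th percentile (line), for other barcodes (filled) and low-UMI barcodes (open) of each library. The medians of other barcodes are 7.98% in the control and at 1 Gy, 11.4% at 10 mGy and 12.3% at 100 mGy, and each low-UMI median lies above its library's other barcodes.

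Within a library, low-UMI barcodes were not a scaled copy of the others. In CPM, 24 of the 51 genes were higher in them in all 4 libraries and 3 were lower, RPL12, RPL29 and RPLP1, each beyond its counting interval, against 7.89% and 8.91% of all genes. RPL31 had the largest ratio of low-UMI to other barcodes in the 3 irradiated libraries, with 1.82 after 10 mGy, 1.69 after 100 mGy and 1.61 after 1 Gy, and 1.27 in the control, where RPL10A had 1.28. RPL38 was next at the low doses, with 1.43 and 1.497, and had 1.17 in the control and 1.33 at 1 Gy. The median of the 51 genes was 1.08, 1.09, 1.05 and 1.26, beside 0.987, 0.957, 0.988 and 0.940 for all genes. Among low-UMI barcodes alone, 14 of the 51 genes were over 1.2-fold higher at 1 Gy than in the control, against 10.9% of all genes.

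Spread between cells was taken at a fixed depth, with each barcode thinned to 5000 UMIs and shallower barcodes left out. This kept 9060 barcodes of the control, 12561 after 10 mGy, 14271 after 100 mGy and 11530 after 1 Gy. Left out in the same order were 2051 of 11111, 8953 of 21514, 5679 of 19950 and 3980 of 15510 barcodes. Values of spread and co-variation at different doses therefore rest on unequal parts of the libraries. The measure was the Fano factor, the variance over the mean of UMIs per barcode, which is about 1 for pure counting. Its median over the 50 members of at least 100 CPM was 1.27 in the control, 1.26 after 10 mGy, 1.33 after 100 mGy and 1.26 after 1 Gy, and over all genes of that level 1.05, 1.04, 1.05 and 1.04. A higher level raises the Fano factor for the same relative spread, and the members lie above most genes in level.

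Ranked by the mean over the 4 libraries, RPL10 had the highest Fano factor, with 2.04 in the control, 2.15 after 10 mGy, 2.38 after 100 mGy and 2.02 after 1 Gy. RPL12 with 1.58, 1.65, 1.94 and 1.73 and RPL28 with 1.68, 1.54, 1.77 and 1.71 came next by that mean. The lowest means were those of RPL7L1 with 1.01 to 1.05, RPL26L1 with 1.05 to 1.07 and RPL4 with 1.08 to 1.09. All 3 are also among the members of lower level, RPL4 in the 41st place of 53 in the control and in the 45th at both low doses. RPL22L1 stood below all 3 in level in the control, in the 50th place, and was not among the 3 lowest means. The part of level in this order was not tested.

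With counting variance subtracted, the remaining coefficient of variation had a median over the members of 18.7% in the control, 16.01% after 10 mGy, 17.6% after 100 mGy and 18.1% after 1 Gy, beside 20.5%, 19.97%, 21.9% and 19.4% for all genes of at least 100 CPM. By this measure the median of the family lay below that of other abundant genes in every library. RPL22L1 had the highest value of the 50 members in every library, with 39.9%, 45.6%, 46.1% and 38.3%, far above RPL22 with 15.8%, 14.3%, 17.0% and 13.5%. The sum over the 53 genes varied by 13.3%, 10.5%, 11.5% and 12.6%, so the cells of a library differed modestly in their total share of these transcripts.

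Co-variation was described as Pearson's r, over the thinned barcodes of a library, between a gene and the sum of the other members, as a description without a test, since barcodes share the library and the fixed depth. The median over the 46 core genes was 0.31 in the control, 0.28 after 10 mGy, 0.29 after 100 mGy and 0.29 after 1 Gy. RPL10 was highest with 0.50, 0.44, 0.48 and 0.49. RPL4 had 0.07, 0.07, 0.03 and 0.09, and RPL31 had 0.08, 0.08, 0.04 and 0.12, below all other core genes in each library. Core genes of lower level than RPL4 had higher values in the control, such as RPL36A with 0.22 and RPL34 with 0.27. RPL13A was in the upper part in the control (0.39), at 10 mGy (0.36) and at 1 Gy (0.44), and was 0.21 at 100 mGy, the dose at which its level lagged behind the family.

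The paralogs co-varied weakly with the family. RPL36AL had 0.15, 0.10, 0.14 and 0.09, and RPL22L1 had 0.06, 0.06, 0.09 and 0.05. RPL7L1 was the 1 expressed member with a negative value in all 4 libraries, −0.06, −0.05, −0.06 and −0.04. In counts this sparse, values near 0 for genes of low level are no finding.

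**Figure D5:**
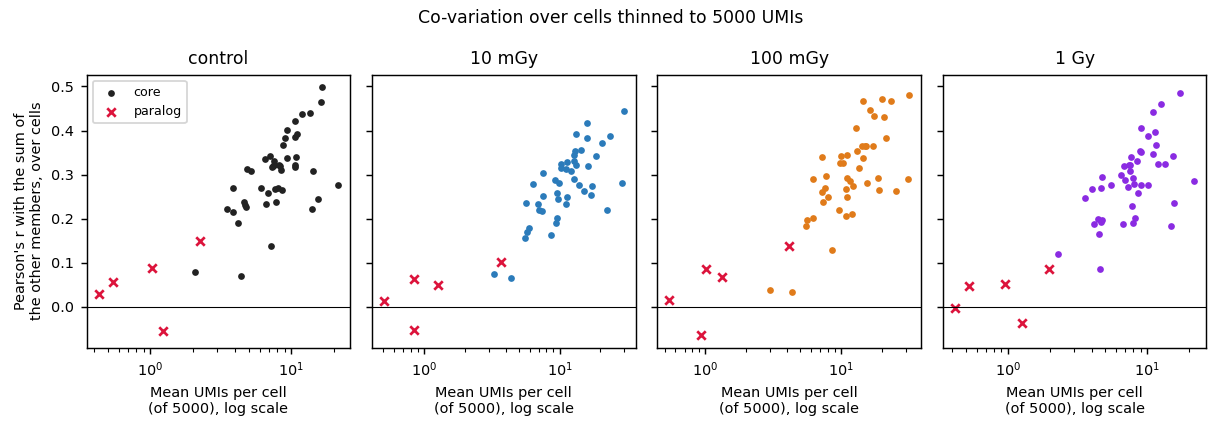
Pearson's r between the UMIs of a gene and the sum of the other members over barcodes thinned to 5000 UMIs, against the mean UMIs of the gene per barcode on a log axis, for core genes (dots) and paralogs (crosses) in each library. Core genes reach 0.50 in the control at RPL10, and RPL7L1 lies below 0 in all 4 libraries.

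Other ribosomal genes were counted for comparison in CPM. Of 32 compared small subunit genes, 31 were over 1.2-fold higher at 10 mGy and 30 at 100 mGy, against 15.4% and 14% of all genes, with medians of 1.53 and 1.70. Of 48 compared mitochondrial large subunit genes, 31 passed at each low dose, against the same shares of all genes, with medians of 1.31 and 1.30.

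Factors that assemble the large subunit were over 1.2-fold lower at the low doses in CPM about as often as all genes. Of 28 compared, 17 at 10 mGy (60.7%, against 53% of all genes) and 16 at 100 mGy (57.1%, against 58.9%) were lower and 1 was higher, with median ratios of 0.770 and 0.795, near those of all genes, 0.810 and 0.766. The higher one was EIF6, which keeps the new subunit from joining too early, with ratios of 1.49 and 1.53. MDN1, a giant motor protein of the process, had 0.436 and 0.401, and RRS1, which helps to place the 5S particle, had 0.496 and 0.535. At 1 Gy the median of the list was 0.990. Among the 51 ribosomal protein genes, Spearman's rho of the log2 ratio with exonic length was −0.10 at 10 mGy and −0.19 at 100 mGy, while over 8417 other genes it was −0.55 and −0.56, as a description across genes that are not independent. Exonic length was taken as the union of all annotated exons of a gene, which can far exceed its mRNA. For RPL39 it was 2141 bases, while the longest transcript had 401. By this measure length moved with the ratio far more across the other genes than within the family. The part of length in the result was not tested.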

How the data were processed

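The deposited values are raw UMI counts made by the authors from Chromium 3′ v3 libraries, without normalization. The file headers name Cell Ranger 7.0.1, and the submitters' processing notes name GRCh37 and STAR. The annotation is not given in the sources used here, nor is the counting of introns. The study's text gives a smaller, rounded number of cells per library than the barcodes deposited. All deposited barcodes were used, doublets were kept, and no filter on cells was applied. UMIs were summed per library and scaled to CPM, genes with an average of at least 10 CPM across libraries were compared, and a ratio over 1.2-fold was called. Intervals are exact 95% intervals (Poisson for levels, binomial for shares and ratios). Exonic lengths and transcripts came from GENCODE 29, where 34616 of 36601 identifiers and 53 of 53 members matched by gene identifier.

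Members, lists and named genes were chosen with earlier results of these data known. Genes were named by rule: every paralog and its core gene, the 5 largest and 5 smallest ratios at 10 mGy and 100 mGy, the 3 largest and 3 smallest at 1 Gy and between the low doses, the 3 highest control levels, and the 3 highest and 3 lowest Fano factors. Levels of the other members are given so that members are accounted for, except some that are not reported here. RPL23A, RPL29 and RPL38 as single features, KRT7 and the other marker genes, MALAT1 and the single assembly factors fall outside this rule and were named after their values were seen. Alternatives were other scalings and pseudobulk sums over other sets of barcodes, floors of 1 and 100 CPM, thinning to 1500 UMIs and a threshold of 1.5-fold. Each dose had 1 library, so no p-value was computed. Ratios and spread were tested on simulated data. The work used pandas 2.3.3, scipy 1.17.1, numpy 2.4.6 and matplotlib 3.10.9 under Python 3.11.15.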

Additional observations from a re-analysis of the deposited data

How the results depend on the processing

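In unscaled UMIs per barcode the members' median log2 ratio was −0.0081 at 10 mGy, −0.057 at 100 mGy, −0.47 at 1 Gy and −0.0013 for 100 mGy against 10 mGy, with 1, 6, 0 and 0 members over 1.2-fold higher and 5, 8, 51 and 2 lower. The shares of all genes in the same order were 1.62%, 1.02%, 0% and 0.341% higher and 84.6%, 90.1%, 97.2% and 31.6% lower. On that scale 25, 28, 28 and 19 members turned from above to below 0. Among the genes named by the rule that were over 1.2-fold higher in CPM, those that turned at 10 mGy were RPL12 (−0.24), RPL13A (−0.084), RPL18 (−0.10), RPL19 (−0.0081), RPL26L1 (−0.20), RPL3 (−0.21) and RPLP1 (−0.10). At 100 mGy they were RPL12 (−0.21), RPL18 (−0.060), RPL19 (−0.0045), RPL26L1 (−0.25), RPL27A (−0.014), RPL28 (−0.010), RPL3 (−0.36), RPL31 (−0.14), RPL39L (−0.30), RPL5 (−0.36), RPL7 (−0.057), RPL8 (−0.10) and RPLP1 (−0.12). By construction this scale keeps the UMIs per barcode, whose median was lower in all 3 irradiated libraries than in the control. Median ratio scaling, which sets the median gene near 0, gave 0.82, 0.97, −0.018 and 0.20, with 50, 50, 0 and 7 members higher (30.6%, 31.8%, 0.658% and 4.69% of all genes) and 0 lower in each comparison, so that RPL4 turned higher and RPL7L1 lost its lower call. Leaving ribosomal protein genes and mitochondrially encoded ones out of the scaling gave 0.61, 0.71 and 0.15 (10 mGy, 100 mGy, and between them). UMIs scaled per barcode and averaged gave 0.54, 0.57, 0.062 and 0.091. Only low-UMI barcodes gave 0.56, 0.56, 0.19 and 0.064, with 14 members over 1.2-fold higher (10.9% of all genes) and 19 turned above 0 at 1 Gy. Without low-UMI barcodes the 1 Gy median was 0.0066. Thinning to 1500 UMIs gave 0.55, 0.55, 0.022 and 0.089. Between the low doses it left 1 member higher and 2 lower, against 3.54% and 14.8% of all genes. A floor of 100 CPM gave 0.59 at 100 mGy. At a threshold of 1.5-fold, 18 members were higher at 10 mGy and 26 at 100 mGy, against 4.94% and 5.04% of all genes. The share of UMIs in the members (control, 10 mGy, 100 mGy, 1 Gy) was 8.03%, 11.4%, 12.4% and 8.05% without low-UMI barcodes, 8.36%, 12.2%, 12.7% and 9.55% in them alone, 8.08%, 11.7%, 12.3% and 8.19% after thinning, and 8.17%, 11.7%, 12.5% and 8.48% as a mean over barcodes. The median Fano factor at 1500 UMIs was 1.09, 1.08, 1.10 and 1.08. The other 54 values of the family as a whole stayed near those in CPM, while of the values of single named genes 443 left their counting interval and 209 did not, beside the 20 reversed ones. No paired analysis was possible because each dose has 1 library. Depth limits RPL3L and RPL10L and the spread and co-variation of genes of low level, and with 1 library per dose the spread between libraries is unknown.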
